A study of Mus musculus with 24 samples.

Results

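The 7 genes that encode NMDA receptor subunits (Grin1, Grin2a, Grin2b, Grin2c, Grin2d, Grin3a and Grin3b) were examined in medial frontal cortex from 28-day-old (P28) mice of the C57BL/6J strain. They were taken by gene symbol from the messenger RNA table and made up 7 of its 36096 genes and 39 of its 117640 transcripts with a gene identifier. Dnmt3l males and Dnmt3l females (genotype Dnmt3l;Emx1-cre, offspring of a conditional Dnmt3l knock-in line crossed with Emx1-cre mice) were set against control males and control females (genotype Emx1-cre). Both genotypes therefore carried the Cre driver, and Emx1 directs Cre to the dorsal forebrain lineage of excitatory cortical neurons and many glia, while most interneurons, microglia and vessel cells arise outside that lineage. Each of the 4 groups held 3 ribosomal RNA-depleted libraries, written DM1 to DM3, DF1 to DF3, CM1 to CM3 and CF1 to CF3 (D for Dnmt3l, C for control, M for male, F for female). The series counts 3 males and 3 females per genotype but does not state that every sample was a different animal. The p-values rest on the spread among these libraries, part of which may be technical.

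Most NMDA receptors are glutamate-gated cation channels of excitatory synapses. These pass current when glutamate and a co-agonist (glycine or D-serine) are bound and the membrane is depolarised enough to expel the blocking magnesium ion. Each channel needs the obligatory GluN1 subunit, encoded by Grin1, which binds the co-agonist, together with glutamate-binding GluN2 subunits (Grin2a to Grin2d) that set its kinetics, or GluN3 subunits (Grin3a and Grin3b) that reduce calcium flow. In rodent cortex GluN2B predominates early in life and GluN2A rises after birth, which makes the ratio of Grin2a to Grin2b a common marker of synapse maturation.

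All members but Grin3b lie on the minus strand of build GRCm38, as the deposited table places them, and they differ widely in size. Grin1 (ENSMUSG00000026959) spans chr2:25291181-25319187 and has 14 annotated transcripts. Grin2a (ENSMUSG00000059003) spans 427663 bases at chr16:9567898-9995560 with 6 transcripts, and Grin2b (ENSMUSG00000030209) spans 460279 bases at chr6:135713233-136173511 with 7. The short Grin2c (ENSMUSG00000020734, chr11:115249169-115267243) has 2 transcripts, and Grin2d (ENSMUSG00000002771, chr7:45831883-45878378) has 3. Grin3a (ENSMUSG00000039579, chr4:49661611-49845744) has 4, and Grin3b (ENSMUSG00000035745, chr10:79970715-79977190) has 3.

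Expected counts summed to between 22144970 and 26842726 per library in Dnmt3l and between 27074837 and 32100277 in controls. The targeted gene matched the labels, with 521 to 1179 Dnmt3l counts in Dnmt3l libraries and 0 to 3 in controls. DF1 stood apart from the other Dnmt3l libraries: it had the most Dnmt3l counts (1179), but mitochondrial transcripts took 3.71% of its counts, while they took 5.54% to 7.26% in the remaining Dnmt3l libraries and 2.62% to 3.57% in controls. CM3, CF1 and CF2 held liver transcripts, with a summed level of 67.5, 83.5 and 85.8 CPM (counts scaled to library size) over 8 liver genes, against at most 1.73 CPM in any Dnmt3l library and 0.229 to 0.519 CPM in the other 3 controls (Ttr and Trf, which brain also expresses, were taken off this list after its values were seen). Results that rest on these libraries are given with and without them. Leaving out CM3, CF1 and CF2 together keeps CF3 as the only control female, beside the control males CM1 and CM2. Calls lost in that fit are therefore lost with fewer samples, and the cause of a loss was not tested.

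The subunit genes with the 3 largest rises in RNA (Grin1, Grin2c and Grin2d, below) had an annotated start site in the RefSeq promoter table (build GRCm38.p6), which matched 4 of the 7 members. The 250 bases upstream of each of these 3 start sites are shown because Dnmt3l, which has no enzymatic activity itself, stimulates the enzymes that newly methylate DNA, mainly at CpG dinucleotides. Capitals mark each CG. The RefSeq start of Grin2d lies inside the longer span that the deposited table gives the gene. Methylation was not measured in these libraries.
Grin1 (chr2:25319188-25319437, minus strand): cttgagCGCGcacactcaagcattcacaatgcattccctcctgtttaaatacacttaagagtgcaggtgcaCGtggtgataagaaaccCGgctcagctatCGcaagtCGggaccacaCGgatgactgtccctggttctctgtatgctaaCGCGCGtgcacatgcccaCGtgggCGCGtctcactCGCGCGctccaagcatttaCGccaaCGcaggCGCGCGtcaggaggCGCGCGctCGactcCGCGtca
Grin2c (chr11:115267244-115267493, minus strand): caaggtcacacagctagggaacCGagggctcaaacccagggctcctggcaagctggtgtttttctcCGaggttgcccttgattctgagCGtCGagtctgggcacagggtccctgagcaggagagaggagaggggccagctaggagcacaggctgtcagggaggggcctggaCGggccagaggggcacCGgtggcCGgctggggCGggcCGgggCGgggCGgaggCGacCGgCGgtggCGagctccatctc
Grin2d (chr7:45866682-45866931, minus strand): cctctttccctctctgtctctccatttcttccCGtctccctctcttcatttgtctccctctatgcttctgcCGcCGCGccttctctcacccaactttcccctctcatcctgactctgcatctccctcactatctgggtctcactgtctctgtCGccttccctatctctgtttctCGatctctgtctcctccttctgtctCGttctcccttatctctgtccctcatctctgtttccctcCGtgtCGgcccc
The Grin1 window held 27 CG dinucleotides, and 8.56% of the 32851 promoters in the table held as many or more. The Grin2c window held 15 (as many or more in 27.3%), crowded at its downstream end, and the Grin2d window held 9 (40.3%), against a median of 6 over all promoters. The fourth matched member, Grin3b, held 2 (81.2%). The GC box core GGGCGG, searched on both strands and overlapping 1 CG per match, occurred 3 times in the Grin2c window and in none of the other 3, and 32.7% of all promoter windows of that length held at least 1 match.

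The family spanned more than 3 orders of magnitude in level, and its order was the same in both genotypes. Levels are compared between genes per length, as the authors' FPKM (fragments per kilobase, scaled to library depth) summed over a gene's transcripts. Grin1 was highest, at 281 ± 35.6 FPKM in Dnmt3l and 207 ± 7.86 FPKM in controls (SD, n = 6 each, as for all means below that give no other n). Grin2b came next (159 ± 17.3 FPKM in Dnmt3l and 123 ± 5.73 FPKM in controls), then Grin2a (106 ± 10.3 FPKM in Dnmt3l and 82.6 ± 4.08 FPKM in controls). Grin2c, typical of cerebellar granule cells and also made by astrocytes, averaged 20.2 ± 4.33 FPKM in Dnmt3l and 11.9 ± 1.05 FPKM in controls. Grin3a averaged 13.4 ± 2.17 FPKM in Dnmt3l and 11.3 ± 0.925 FPKM in controls. Grin2d, in cortex a subunit of interneurons, averaged 5.15 ± 0.961 FPKM in Dnmt3l and 3.76 ± 0.481 FPKM in controls. Grin3b, known chiefly from motor neurons, was near the floor, at 0.167 ± 0.0920 FPKM in Dnmt3l and 0.112 ± 0.0549 FPKM in controls. Each neighbour in this order stood apart from the next without overlap of the libraries of a genotype, except Grin2c and Grin3a, whose ranges overlapped in both genotypes. Grin2c exceeded Grin3a in 6 of 6 Dnmt3l libraries and in 4 of 6 controls.

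**Figure D1:**
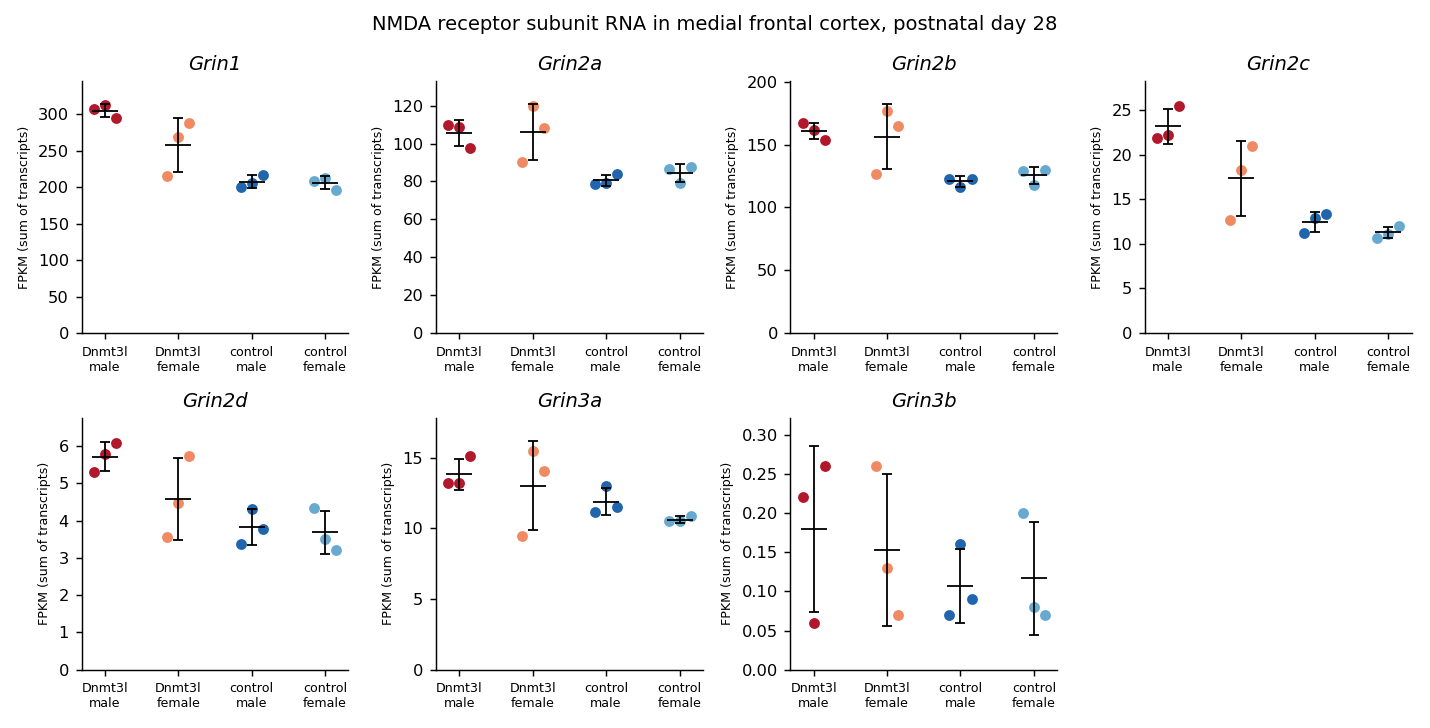
FPKM of the 7 subunit genes (sum over a gene's transcripts, vertical axes from 0) in each library, in Dnmt3l males, Dnmt3l females, control males and control females; points are libraries, horizontal bars are means and whiskers are SD (n = 3). For Grin1, the Dnmt3l males sit between 295 and 313 FPKM and the control males between 200 and 217, and DF1 is the lowest Dnmt3l point for all members but Grin3b.

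Grin1, the obligatory subunit, had 307, 313 and 295 FPKM in Dnmt3l males and 216, 269 and 288 FPKM in Dnmt3l females, against 200, 206 and 217 FPKM in control males and 209, 213 and 196 FPKM in control females. Every Dnmt3l library but DF1 lay above the highest control on this scale, and DF1, at 216 FPKM, lay just under CM3. On the CPM scale used for the test, which TMM scaling makes comparable between libraries, all 6 Dnmt3l libraries lay above all 6 controls, as they did for 5.47% of all 15786 genes tested. The fold was 1.44, a log2 change of 0.53 ± 0.08 (SE, averaged over the sexes, adjusted p = 0.000256 by edgeR's quasi-likelihood test with Benjamini-Hochberg adjustment over all genes tested, as for every adjusted p below that names no other tool).

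Grin2a and Grin2b, the main GluN2 subunits of cortex, rose by the same small amount. Grin2a had 110, 109 and 97.6 FPKM in Dnmt3l males and 90.5, 120 and 108 FPKM in Dnmt3l females, against 78.6, 79.4 and 83.8 FPKM in control males and 86.6, 79.2 and 87.9 FPKM in control females. The 2 genotypes did not overlap in FPKM (3.01% of all genes tested had every Dnmt3l library above every control on this scale), but in CPM only 4 of the 6 Dnmt3l libraries exceeded the highest control. Grin2b had 167, 162 and 154 FPKM in Dnmt3l males and 127, 177 and 165 FPKM in Dnmt3l females, against 123, 116 and 123 FPKM in control males and 129, 118 and 130 FPKM in control females. All Dnmt3l libraries but DF1 exceeded every control. The log2 change was 0.24 ± 0.07 for each gene (1.18-fold), with adjusted p = 0.00888 for Grin2a and 0.0124 for Grin2b. On log2(FPKM + 0.1), tested with limma, the changes were 0.35 ± 0.08 (adjusted p = 0.00389) and 0.36 ± 0.08 (adjusted p = 0.00513). The transcripts behind this gap between scales are described further on.

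Grin2c showed the largest rise of the 6 tested members. It had 21.9, 22.2 and 25.4 FPKM in Dnmt3l males and 12.7, 18.3 and 21.0 FPKM in Dnmt3l females, against 11.2, 12.9 and 13.3 FPKM in control males and 10.7, 11.1 and 12 FPKM in control females. DF1 lay among the controls and the other 5 Dnmt3l libraries lay above them. The log2 change was 0.86 ± 0.11 (1.81-fold, adjusted p = 0.000199). Grin2d had 5.30, 5.79 and 6.07 FPKM in Dnmt3l males and 3.56, 4.46 and 5.73 FPKM in Dnmt3l females, against 3.37, 4.32 and 3.78 FPKM in control males and 4.34, 3.51 and 3.22 FPKM in control females. Again only DF1 failed to exceed the highest control, and the log2 change was 0.57 ± 0.11 (1.48-fold, adjusted p = 0.000889).

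Of the GluN3 subunits, Grin3a had 13.2, 13.2 and 15.1 FPKM in Dnmt3l males and 9.46, 15.5 and 14.1 FPKM in Dnmt3l females, against 11.2, 13.0 and 11.5 FPKM in control males and 10.5, 10.5 and 10.9 FPKM in control females. DF1 was the lowest of all 12 libraries, and the other 5 Dnmt3l libraries exceeded every control. The log2 change was 0.31 ± 0.10 (1.24-fold, adjusted p = 0.0166), and on log2(FPKM + 0.1) it was 0.24 ± 0.11 and was not called (limma, adjusted p = 0.115). Grin3b did not reach 0.5 FPKM in at least 3 libraries, the level required for a test. Its expected counts summed to 57 over the 6 Dnmt3l libraries and to 34 over the 6 controls, at most 21 in a library. In CPM it had 0.403, 0.206 and 0.833 in Dnmt3l males and 0.427, 0.271 and 0.214 in Dnmt3l females, against 0.208, 0.262 and 0.181 in control males and 0.266, 0.145 and 0.0680 in control females. On this scale 4 of 6 Dnmt3l libraries lay above the highest control. In the fit with no filter, over 22533 genes, its log2 change was 1.01 ± 0.54 and was not called (edgeR, adjusted p = 0.161), an estimate that rests on few counts.

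All 6 tested members were thus called higher in Dnmt3l at an adjusted p below 0.05 and none lower. The background was large: 25% of all genes tested were called higher and 26.1% lower in the same comparison. The median log2 change was 0.42 over the 6 members and 0.02 over all genes tested. No call was lost when any 1 of the 12 libraries was left out, with a highest adjusted p of 0.0464 (Grin3a) among those fits. Without CM3, CF1 and CF2, Grin1 (0.56 ± 0.12, adjusted p = 0.0155), Grin2c (0.81 ± 0.16, adjusted p = 0.0152) and Grin2d (0.61 ± 0.16, adjusted p = 0.0225) remained called, while Grin2a (0.23 ± 0.11, adjusted p = 0.119), Grin2b (0.25 ± 0.11, adjusted p = 0.113) and Grin3a (0.28 ± 0.15, adjusted p = 0.169) did not, and 12.3% of all genes were then called higher. CF3 was the only control female in that fit, and the SEs of all 6 members were larger there than with all libraries. In bulk tissue, a different number of expressing cells and a different amount of RNA per cell cannot be told apart.

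**Figure D2:**
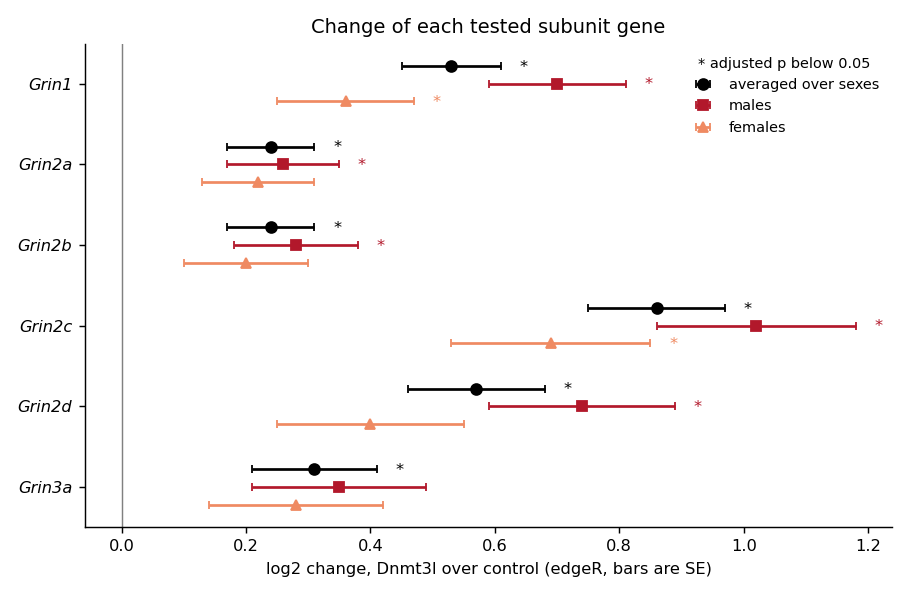
Log2 change, Dnmt3l over control, of the 6 tested subunit genes (horizontal axis, bars are SE, edgeR) averaged over sexes, in males and in females; a star marks an adjusted p below 0.05. Every estimate lies above 0, from 0.20 for Grin2b in females to 1.02 for Grin2c in males.

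Within males, 5 of the 6 tested members were called higher, where 20.4% of all genes were: Grin1 (0.70 ± 0.11, adjusted p = 0.000911), Grin2c (1.02 ± 0.16, adjusted p = 0.000911), Grin2d (0.74 ± 0.15, adjusted p = 0.00241), Grin2b (0.28 ± 0.10, adjusted p = 0.0365) and Grin2a (0.26 ± 0.09, adjusted p = 0.038). Grin3a was not called (0.35 ± 0.14, adjusted p = 0.0551). The calls of Grin1, Grin2c and Grin2d in males held in every fit without 1 library. Those of Grin2a and Grin2b were both lost without DM1, DM2, CM1, CM2, CM3, CF2 or CF3, each of which left 3 called members, and Grin2a alone without CF1, which left 4. Both were also lost with no filter on low genes (adjusted p = 0.0672 for Grin2a and 0.0527 for Grin2b), with the replicate number as a block (0.0611 for Grin2a and 0.0589 for Grin2b) and without CM3, CF1 and CF2 together (0.145 for Grin2a and 0.159 for Grin2b). Without DF1, DF2 or DF3, Grin3a was called too and the count was 6.

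Within females, 2 of the 6 were called higher, Grin2c (0.69 ± 0.16, adjusted p = 0.0301) and Grin1 (0.36 ± 0.11, adjusted p = 0.0478), where 4.93% of all genes were. Grin2a (0.22 ± 0.09, adjusted p = 0.125), Grin2b (0.20 ± 0.10, adjusted p = 0.178), Grin2d (0.40 ± 0.15, adjusted p = 0.0923) and Grin3a (0.28 ± 0.14, adjusted p = 0.177) were not. This count turned on single libraries. Without DF1 all 6 were called (Grin3a at 0.45 ± 0.07, adjusted p = 5.05e-05), and the share of all genes called higher was then 21.9%. Without DM1, DM2, DM3, CM1 or CM2 the count was 1, and without DF2, DF3, CM3, CF1, CF2 or CF3 it was 0. DF1 itself differed from the mean of the control females by a log2 CPM of 0.09 for Grin1, 0.05 for Grin2a, -0.05 for Grin2b, 0.22 for Grin2c, 0.04 for Grin2d and -0.20 for Grin3a, whereas DF2 and DF3 lay 0.23 to 1.01 above it for every tested member.

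The effect in males minus that in females was not called for any member. By the edgeR test 0 of 15786 genes were called in that comparison, and 6.9% had an unadjusted p below 0.05. Grin1 was the 1 member among them (0.33 ± 0.15, adjusted p = 0.686). The other tested members lay between 0.04 ± 0.13 (Grin2a) and 0.35 ± 0.21 (Grin2d). Between control females and control males none of the 6 differed either, each with an adjusted p of 1, in a comparison that called 0.019% of all genes.

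The ratio of Grin2a to Grin2b showed no difference between genotypes beyond the spread between libraries. In FPKM it was 0.654, 0.670 and 0.635 in Dnmt3l males and 0.714, 0.679 and 0.652 in Dnmt3l females, against 0.639, 0.683 and 0.680 in control males and 0.672, 0.673 and 0.674 in control females. The genotypes overlapped throughout, the highest ratio (DF1) and the lowest (DM3) both being from Dnmt3l. The mean was 0.668 ± 0.0277 in Dnmt3l and 0.670 ± 0.0158 in controls. The difference in mean log2 ratio was -0.01, with a 95% interval of -0.07 to 0.06 from the spread between libraries (exact two-sided permutation test, p = 0.838, where the smallest possible p is 0.00216). It was -0.03 in males (exact p = 0.50) and 0.02 in females (exact p = 0.700), comparisons of 3 against 3 that cannot go below p = 0.10. From the most abundant transcript of each gene alone the difference was -0.02 (95% interval -0.11 to 0.06, exact p = 0.619).

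**Figure D3:**
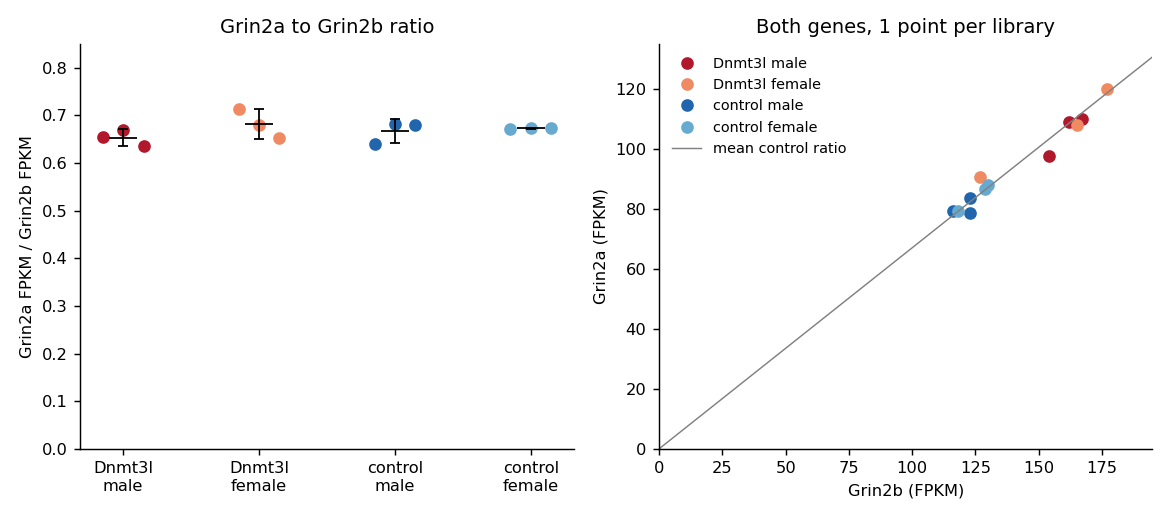
Left, the ratio of Grin2a to Grin2b FPKM in each library by group (points, with mean and SD, n = 3, axis from 0). Right, Grin2a against Grin2b FPKM, 1 point per library, with a line at the mean control ratio. The Dnmt3l libraries other than DF1 lie further out along the line, at 97.6 to 120 FPKM of Grin2a. DF1 has 90.5 FPKM of Grin2a and 127 FPKM of Grin2b, and the latter lies within the control range. The ratio runs from 0.635 to 0.714 over all 12.

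The family as a whole summed to 585 ± 62.8 FPKM in Dnmt3l and 440 ± 10.4 FPKM in controls, and its mean make-up per length over both sexes was similar. Grin1 made up 48.1% ± 2.11 of the family sum in Dnmt3l and 47.1% ± 1.51 in controls, Grin2b 27.2% ± 1.26 in Dnmt3l and 28% ± 1.11 in controls, and Grin2a 18.1% ± 1.37 in Dnmt3l and 18.8% ± 0.665 in controls. By sex, the Grin1 share was 49.2% to 50.1% in Dnmt3l males, against 46.8% to 48.0% in control males, and 44.5% to 47.9% in Dnmt3l females, against 44.5% to 48.9% in control females, so that the ranges lay apart in males and overlapped in females. Grin2c made up 6.96% ± 1.28 of the summed GluN2 genes in Dnmt3l, with a range of 5.43% to 8.97%, and 5.37% ± 0.530 in controls, with a range of 4.65% to 6.04%. The GluN2 genes together stood at 1.04 ± 0.0904 times Grin1 in Dnmt3l and 1.07 ± 0.0689 times in controls. These shares were not tested.

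Separate transcripts were tested on the same design, with 33 of the 39 passing a filter of 0.1 FPKM in at least 3 libraries. A total of 8 were called higher and none lower, where 3.2% of 69442 transcripts were called higher and 6.49% lower: 4 of Grin1 and 1 each of Grin2a, Grin2b, Grin2c and Grin2d. The count fell to 4 without DM1, DM2, DF2, CM1, CM2 or CF2 and to 5 without DF3, rose to 12 without DF1, and was 0 without CM3, CF1 and CF2. Expected counts of transcripts that share exons carry an error of assignment that these fits do not contain. The scaling of the transcript fit differed from that of the gene fit by 0.13 on the log2 scale between genotypes, which lowers transcript changes by that amount against gene changes.

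Grin2b showed the clearest difference between its transcripts. Its longest, ENSMUST00000053880 (24060 bases), was at nearly the same level in both genotypes, with 88.8, 93.5 and 83.1 FPKM in Dnmt3l males and 89.0, 108 and 104 FPKM in Dnmt3l females, against 92.8, 86.9 and 92.5 FPKM in control males and 99.3, 94.7 and 92.8 FPKM in control females. Its log2 change was -0.02 ± 0.06 (adjusted p = 0.869). The shorter ENSMUST00000111905 (7484 bases) had 65.5, 60.3 and 58.2 FPKM in Dnmt3l males and 20.1, 47.6 and 42.6 FPKM in Dnmt3l females, against 19.4, 20.5 and 21.2 FPKM in control males and 16.9, 16.5 and 18.4 FPKM in control females. DF1 lay within the control range, and the other 5 Dnmt3l libraries lay above every control. The log2 change was 1.30 ± 0.16 (adjusted p = 0.00571), the largest among the 8 called transcripts, and it stayed between 1.20 and 1.43 when single libraries were left out. The third in level, ENSMUST00000152012 (2461 bases), averaged 5.80 ± 3.71 FPKM in Dnmt3l and 3.87 ± 1.58 FPKM in controls and was not called (0.33 ± 0.25, adjusted p = 0.463). The sexes went opposite ways for this transcript. In males it had 1.98 to 3.52 FPKM in Dnmt3l and 2.56 to 6.00 FPKM in controls. In females it had 6.53 to 10.8 FPKM in Dnmt3l and 2.16 to 4.33 FPKM in controls, without overlap. Transcripts were not tested within each sex.

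In Grin2a the longest transcript, ENSMUST00000199708 (14634 bases), also averaged the same in both genotypes, with 54.0 ± 7.39 FPKM in Dnmt3l and 54.0 ± 3.55 FPKM in controls (log2 change -0.04 ± 0.06, adjusted p = 0.719). ENSMUST00000032331 (4395 bases) had 28.9, 31.1 and 35.2 FPKM in Dnmt3l males and 14.7, 29.6 and 20.7 FPKM in Dnmt3l females, against 8.22, 18.4 and 13.7 FPKM in control males and 13.6, 5.21 and 16.8 FPKM in control females. Only DF1 fell inside the control range, but the controls spread widely and the change of 1.02 ± 0.29 was not called (adjusted p = 0.0505). ENSMUST00000197242 (3906 bases) averaged 14.3 ± 2.38 FPKM in Dnmt3l and 10.2 ± 0.913 FPKM in controls, with every Dnmt3l library above every control, as for 1.74% of all transcripts tested. It was called with all libraries (0.45 ± 0.11, adjusted p = 0.0291), but the call was lost in 8 of the 12 fits without 1 library, namely DM1, DM2, DF2, DF3, CM1, CM2, CF2 or CF3 (adjusted p up to 0.0774), and with the replicate block (0.0554).

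**Figure D4:**
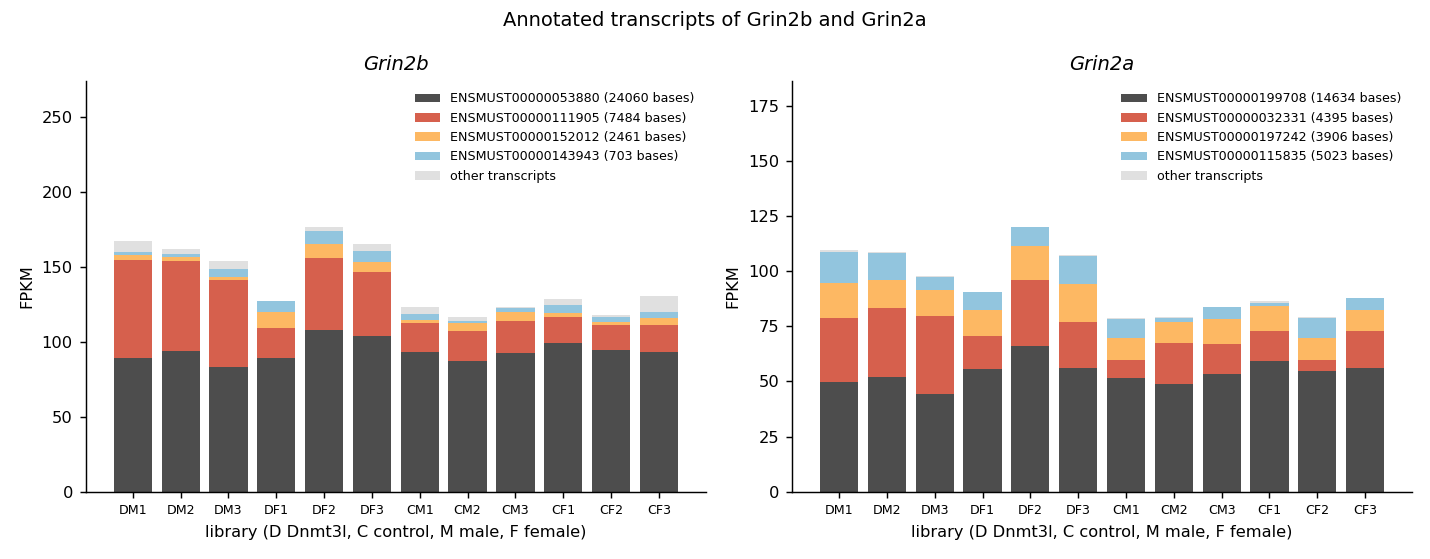
FPKM of the 4 most abundant annotated transcripts of Grin2b (left) and Grin2a (right), stacked in each of the 12 libraries, with the remaining transcripts in light grey and transcript lengths in the legend. The dark bottom segments, the longest transcripts, are of like height in all libraries (83.1 to 108 FPKM for Grin2b), while the red segment of Grin2b reaches 42.6 to 65.5 FPKM in the Dnmt3l libraries other than DF1.

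Expressed as a share, the 24060-base transcript made up 53.0% to 70.2% of Grin2b FPKM in Dnmt3l and 71.1% to 80.6% in controls, and the 14634-base transcript 45.4% to 61.6% of Grin2a FPKM in Dnmt3l and 61.8% to 69.1% in controls. Neither pair of ranges overlapped, though the Grin2a ranges nearly met, and 0.921% of 64146 transcripts had a share lower in every Dnmt3l library than in every control. Relative use was tested with edgeR's diffSpliceDGE, which sets a transcript's change against that of its gene, and of the members it called only the Grin2b transcript of 7484 bases (0.82 higher on the log2 scale, adjusted p = 1.79e-05), where 1.15% of 64146 transcripts were called. Without CM2 or CF2 it called 2. On simulated data this test also called transcripts of unchanged genes, so limma on the log2 ratio of a transcript to the rest of its gene was added after the data had been seen. That test called 3 transcripts of members, where 2.05% of transcripts were called. The 2 from Grin2b are not independent calls, since each makes up most of the other's denominator. The 3 were Grin2b ENSMUST00000111905 (1.22 ± 0.16, adjusted p = 0.0198), Grin2b ENSMUST00000053880 (-1.06 ± 0.15, adjusted p = 0.021) and Grin2a ENSMUST00000199708 (-0.85 ± 0.12, adjusted p = 0.0211) by that limma test. Without CM3, CF1 and CF2 it called none, with 1.21 and adjusted p = 0.138 for the first of them, while edgeR's test then still called 1.

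Summed over all their transcripts under 10000 bases, Grin2b averaged 64.2 ± 14.1 FPKM in Dnmt3l and 30.0 ± 4.73 FPKM in controls, and Grin2a 51.6 ± 8.77 FPKM in Dnmt3l and 28.5 ± 2.68 FPKM in controls. The gene-level differences in FPKM of these 2 genes therefore lay in their shorter transcripts. A shift of the same sign was common among genes of this kind. Of 282 genes with both a transcript of at least 10000 bases and a shorter one, each with a mean of at least 1 FPKM, the log2 change of the most abundant shorter transcript exceeded that of the most abundant long one in 67.4%, with a median difference of 0.19, against 1.32 for Grin2b and 1.06 for Grin2a. Whether RNA quality or the assignment of reads differed between genotypes at these transcripts was not tested.

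In Grin1, by contrast, no transcript was called for relative use by edgeR or limma. ENSMUST00000028335 (4238 bases) averaged 109 ± 17.4 FPKM in Dnmt3l and 81.6 ± 5.29 FPKM in controls, or 38.5% ± 2.21 of the gene in Dnmt3l and 39.5% ± 2.69 in controls. Its change was called with all libraries (0.37 ± 0.10, adjusted p = 0.0386), but the call was lost in 11 of the 12 fits without 1 library, all except that without DF1 (adjusted p up to 0.0915), and with the replicate block (0.0585). ENSMUST00000114314 (3882 bases) averaged 30.2 ± 7.56 FPKM in Dnmt3l and 17.7 ± 2.26 FPKM in controls, without overlap (0.73 ± 0.14, adjusted p = 0.0113), and stayed called without any 1 library. ENSMUST00000114312 (3838 bases), second in level, was not called (0.30 ± 0.14, adjusted p = 0.226). Estimates were above 0 for all 12 tested Grin1 transcripts.

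Grin2c has 2 annotated transcripts. ENSMUST00000003351 (4279 bases) averaged 15.3 ± 4.02 FPKM in Dnmt3l and 9.05 ± 0.650 FPKM in controls (0.69 ± 0.11, adjusted p = 0.0081), and ENSMUST00000106554 (4895 bases) averaged 4.94 ± 1.10 FPKM in Dnmt3l and 2.82 ± 0.961 FPKM in controls (0.80 ± 0.23, adjusted p = 0.0513). In Grin2d, ENSMUST00000002848 (5431 bases) held 91.3% of the gene in Dnmt3l and 88.2% in controls. It was called with all libraries (0.46 ± 0.12, adjusted p = 0.0343), but the call was lost in 10 of the 12 fits without 1 library, all except those without DF1 or CF1 (adjusted p up to 0.0858), and with the replicate block (0.0585). The other 2 Grin2d transcripts, ENSMUST00000211713 (0.11 ± 0.46, adjusted p = 0.931) and ENSMUST00000211250 (-0.70 ± 1.34, adjusted p = 0.811), were traces of under 1 FPKM in every library. In Grin3a none was called: ENSMUST00000076674 (7431 bases) averaged 8.97 ± 1.79 FPKM in Dnmt3l and 7.34 ± 0.846 FPKM in controls (0.25 ± 0.13, adjusted p = 0.241), ENSMUST00000093859 (7491 bases) had a change of -0.33 ± 0.20 (adjusted p = 0.353) and ENSMUST00000131797 (3799 bases) one of 0.53 ± 0.25 (adjusted p = 0.218).

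A total of 4 members were also host to circular RNAs, closed loops of RNA that lack free ends. The circular RNA table listed 17 from these genes among its 10673 (8 of Grin2a, 6 of Grin2b, 2 of Grin3a and 1 of Grin1). It lists 12 of them as exonic and 5, all of Grin2a, as intronic, and 5 were above 0 in at least 6 libraries, all exonic. Its values are whole-number scores of the authors' own scaling, in which many libraries are listed at 0. The only 1 above 0 in all 12 libraries came from Grin2b (chr6:135922872-135923470, GRCm38, exonic), with scores of 42, 85 and 125 in Dnmt3l males and 115, 89 and 92 in Dnmt3l females, against 41, 108 and 110 in control males and 43, 69 and 92 in control females. The genotypes overlapped over nearly their whole range. A Grin2a circle (chr16:9761391-9761983, exonic) was above 0 in 5 of 6 Dnmt3l libraries and 6 of 6 controls. A second Grin2b circle (chr6:135772193-135780336) was above 0 in 6 of 6 Dnmt3l libraries and 3 of 6 controls, with scores of 79, 11 and 57 in Dnmt3l males and 103, 17 and 49 in Dnmt3l females, against 29, 0 and 0 in control males and 43, 107 and 0 in control females. The highest score of all was in a control. Another (chr6:136043891-136044319) was above 0 in 4 of 6 Dnmt3l libraries and 3 of 6 controls, and a Grin3a circle (chr4:49770419-49793032) in 3 of 6 Dnmt3l libraries and 4 of 6 controls. The long non-coding table assigned 1 assembled transcript of 2410 bases to the Grin2d gene, with expected counts of 16 to 51 in Dnmt3l and 24 to 46 in controls. None of these was tested.

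Genes that work with the receptor were called in both directions. Of 72 listed partner genes 70 were tested, and 16 were called higher and 34 lower in Dnmt3l, with a median log2 change of -0.19, against 25% higher and 26.1% lower among all genes. The list and its roles were chosen with earlier results of these data known. Without CM3, CF1 and CF2, 31 of the 70 were called in either direction, against 50 with all libraries.

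**Figure D5:**
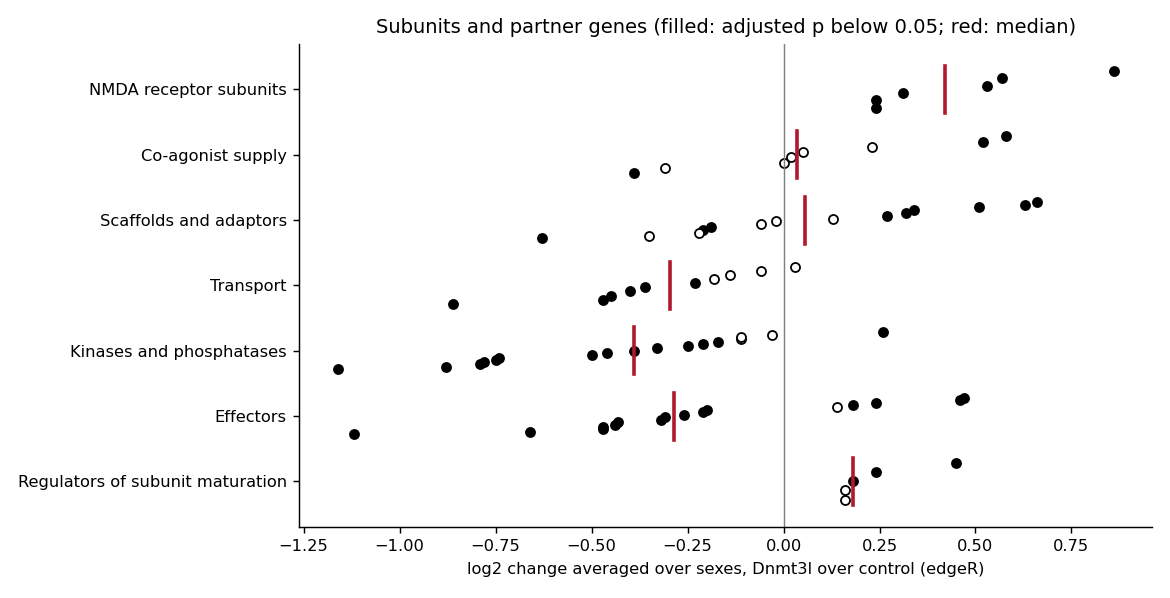
Log2 change averaged over sexes, Dnmt3l over control (horizontal axis, edgeR), of each tested subunit gene and partner gene, by role; filled points have an adjusted p below 0.05 and red bars are medians. The subunits all lie right of 0, with a median of 0.42, and the kinases and phosphatases mostly left of it, with a median of -0.39.

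Genes of co-agonist supply were mixed, with 2 higher and 1 lower of 8 tested. Slc7a10, the transporter of D-serine and glycine in astrocytes and neurons, rose by 0.58 ± 0.17 (adjusted p = 0.0119; 0.0572 without CM3, CF1 and CF2), and Slc1a4, which carries serine and alanine, rose by 0.52 ± 0.10 (adjusted p = 0.00082). Srr, the racemase that makes D-serine, was the 1 that fell (-0.39 ± 0.08, adjusted p = 0.00108). It was named after its value was seen, as the single lower call of its list. Scaffolds and adaptors counted 6 higher and 3 lower of 14. The largest calls were Shank1 (0.66 ± 0.08, adjusted p = 0.000132) and Shank2 (0.63 ± 0.08, adjusted p = 0.000132), which anchor the postsynaptic density. Regulators linked with the change from GluN2B to GluN2A counted 3 higher and 0 lower of 5, led by Reln, the extracellular glycoprotein reelin (0.45 ± 0.10, adjusted p = 0.00308; 0.0651 without CM3, CF1 and CF2). Grm5, a metabotropic glutamate receptor, was called with all libraries (0.24 ± 0.09, adjusted p = 0.0435), but the call was lost in 10 of the 12 fits without 1 library, all except those without DF1 or CF3 (adjusted p up to 0.124). It was also lost with no filter, with limma on FPKM, with the replicate block and without CM3, CF1 and CF2 (0.13 ± 0.13, adjusted p = 0.46).

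Lower calls prevailed in the other 3 roles. Of 10 transport genes 6 were called lower and 0 higher, with Lin7b, an adaptor of the motor complex that carries GluN2B vesicles (-0.86 ± 0.13, adjusted p = 0.000332), and Vps35, a retromer subunit (-0.47 ± 0.10, adjusted p = 0.00209), changed most. Of 17 kinases and phosphatases 13 were called lower and 1 higher, and the 2 largest changes were in calcineurin, the calcium-dependent phosphatase: its regulatory subunit Ppp3r1 fell by 1.16 ± 0.21 (adjusted p = 0.00108) and its catalytic subunit Ppp3ca by 0.88 ± 0.12 (adjusted p = 0.000216). Ptpn5, the phosphatase STEP that acts on GluN2B, was the single higher call (0.26 ± 0.08, adjusted p = 0.0182) and was likewise named after its value was seen. That call was lost in 2 of the 12 fits without 1 library, CM2 or CM3 (adjusted p up to 0.0545), with limma on FPKM (0.14 ± 0.07, adjusted p = 0.132) and without CM3, CF1 and CF2 (0.258). Of 16 effectors 11 were called lower and 4 higher. Calm2 (-1.12 ± 0.23, adjusted p = 0.00259) and Calm3 (-0.66 ± 0.14, adjusted p = 0.00208), both of which encode calmodulin, fell most.

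Summed markers of some other cell types, but not of neurons, were near control levels in DF1 and higher in the other Dnmt3l libraries. Beside the counts of called markers below, 25% of all genes tested were called higher and 26.1% lower. Of 12 astrocyte markers 11 were called higher and 1 lower, and their summed level was 7837 CPM in DF1 and 11825 to 14376 CPM in the other 5 Dnmt3l libraries, against 7090 to 7621 CPM in controls. Microglial markers (9 of 10 higher, 0 lower) summed to 298 CPM in DF1 and 473 to 586 CPM in the other Dnmt3l libraries, against 269 to 307 CPM in controls. Endothelial and pericyte markers (10 of 10 higher) summed to 425 CPM in DF1 and 737 to 937 CPM in the others, against 389 to 448 CPM in controls. Oligodendrocyte precursor markers counted 4 higher and 0 lower of 6, and oligodendrocyte markers 4 higher and 2 lower of 8. Interneuron markers counted 3 higher and 7 lower of 12, with a summed level of 647 to 794 CPM in Dnmt3l (750 CPM in DF1) and 769 to 863 CPM in controls. Excitatory neuron markers counted 2 higher and 4 lower of 12. Their median log2 change was -0.26, whereas their summed level was 6143 to 7336 CPM in Dnmt3l and 4768 to 5698 CPM in controls, a sum that includes the abundant Camk2a. For this sum DF1 was the lowest Dnmt3l library, at 6143 CPM, but lay above every control. These excitatory markers were present in all 12 libraries of the labelled cortex. Striatal markers counted 0 higher and 2 lower of 8, and thalamic markers 1 higher and 0 lower of 4. The part of these differences in the subunits' changes was not tested.

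Across the 12 libraries the members were not equally alike. As a description over libraries that share genotype, sex and scaling, Pearson's r of log2 CPM was 0.967 between Grin1 and Grin2c, 0.955 between Grin1 and Grin2d, 0.958 between Grin2c and Grin2d, and 0.923 between Grin2a and Grin2b. It was lower across these pairs, down to 0.521 between Grin2a and Grin2d. The 3 genes most like each member over all genes tested were Celsr2 (0.994), C1qa (0.993) and Vsir (0.993) for Grin1, Fubp1 (0.963), Chd2 (0.963) and Apba2 (0.955) for Grin2a, and Apba2 (0.978), Clstn2 (0.977) and Opcml (0.975) for Grin2b. For Grin2c they were Mgat5b (0.990), Itprid2 (0.988) and Tbc1d9b (0.987), for Grin2d Slc27a4 (0.986), Slc22a23 (0.982) and Retreg2 (0.979), and for Grin3a Pnoc (0.990), Aoc3 (0.979) and Atp13a5 (0.976). No member was among the 3 nearest of another.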

How the data were processed

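The authors deposited expected counts and FPKM per Ensembl transcript for 119414 transcripts in 12 ribosomal RNA-depleted libraries, per the file headers, together with expected counts of assembled non-coding transcripts and circular RNA values that the authors scaled to whole-number scores. The submitters' processing notes list the aligner HISAT2 2.0.1, the counter HTSeq 0.6.1, cutadapt 1.9.1 and the mouse build GRCm38, among other tools, with no order. Neither the program behind the expected counts nor its use of strand is stated: both are not given in the sources used here. The labels name TRIzol reagent or an RNeasy kit, and more than 1 sequencer, without saying which sample had which. Small RNA libraries were not used here.

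Expected counts were summed per gene, rounded and tested in R 4.3.3 with edgeR 4.0.16 (TMM, quasi-likelihood, 4 group means, 12 libraries). The 1774 transcripts with no gene identifier (0.533% to 0.601% of counts) stayed out. Genes needed 0.5 FPKM and transcripts 0.1 FPKM in at least 3 libraries. All tests were two-sided, fitted on the whole table and adjusted over it (Benjamini-Hochberg, called below 0.05). Alternatives used limma 3.58.1 on log2(FPKM + 0.1) or log2(FPKM + 1), DESeq2 1.42.0 (size factors and Wald test), upper-quartile scaling, other filters, a replicate block, and fits without single libraries, without CM3, CF1 and CF2. The fits were checked on simulated data. Named were the 7 members, the 3 most abundant transcripts of each tested member and any called for relative use, the 2 largest called changes of each partner list, and the 3 genes most correlated with each member. Members and lists were chosen with earlier results of these data known.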

Additional observations from a re-analysis of the deposited data

How the results depend on the processing

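Averaged over the sexes, the 6 subunit calls held under both DESeq2 settings, upper-quartile scaling, no filter, the replicate block and each left-out library. They were 5 with limma at either pseudocount, where Grin3a was lost, and 3 without CM3, CF1 and CF2, a fit with fewer samples that also took all genes called down to 4406, against 8074, partner genes to 31, against 50, and transcripts to 0, against 8. In males the 5 calls became 3 with no filter and with the replicate block, and fewer also held without those 3 controls. They became 6 where Grin3a was added, with upper-quartile scaling (edgeR, adjusted p = 0.0398) and with the DESeq2 Wald test (adjusted p = 0.0417). Over single libraries left out the male count ran from 3 to 6. In females the 2 calls became 0 with limma at either pseudocount and without those 3 controls, 1 with no filter and with the replicate block, and ran from 0 to 6 over single libraries. Transcript calls ran from 4 to 12 over single libraries, and were 11 at a filter of 1 FPKM. Relative use ran from 1 to 2 over single libraries, and under limma was 3, also at 1 FPKM and without DF1, but 0 without the 3 controls. Upper-quartile scaling moved the median of all genes to 0.06, and limma on FPKM to -0.06.

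Replicate numbers are shared between groups, but same-numbered Dnmt3l and control libraries of a sex did not deviate together (correlations of -0.075 to 0.0206). They were therefore not taken as pairs. Same-numbered male and female libraries were not compared in this way. The replicate block gave 6 calls averaged over the sexes, 3 in males, 1 in females, 5 among transcripts and 1 for relative use.

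Values near 0 changed sign, and so did an estimate smaller than its SE (ENSMUST00000211250, -0.70 ± 1.34 with all libraries). The log2 ratio of Grin2a to Grin2b was 0.00 on expected counts (exact permutation p = 0.961) and without the 3 controls (exact p = 0.929), and ran from -0.03 to 0.01 over single libraries (0.01 without DM3, exact p = 0.771). The male minus female difference of Grin3a was -0.05 by limma at either pseudocount, and over single libraries it ran from -0.13 to 0.20 for Grin3a, -0.05 to 0.12 for Grin2a and -0.04 to 0.15 for Grin2b, none called. Without the 3 controls, ENSMUST00000053880 was at 0.00, ENSMUST00000211713 at -0.54 and ENSMUST00000211250 at 2.0. Over single libraries ENSMUST00000211713 ran from -0.23 to 0.58 and ENSMUST00000211250 from -2.07 to 1.96. Relative use of ENSMUST00000152012 by limma was -0.11 without DF1 and -0.07 without the 3 controls. Where a construction with fewer samples does not show it, the cause was not tested.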
